A study of Mus musculus with 69 samples.

Results

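The genes described here are 10 that belong to the antioxidant programme of the transcription factor Nrf2 in mouse lung: Hmox1, Nqo1, Gclc, Gclm, Txnrd1, Srxn1, Slc7a11, Gsr, Osgin1 and Nfe2l2, the last of which encodes Nrf2 itself. They were found on the array through the transcript accession of each probe, which was matched to a RefSeq symbol, and 10 of 10 were present among the 17639 genes tested. They had 18 probes, of which 16 were bright enough to be kept. Whole lungs of 69 female C57BL/6 mice were measured, each on its own array. The mice were 5 to 7 weeks old on arrival, were acclimatised for 1 to 3 weeks, and received a single intratracheal instillation of TiO2 nanoparticles or of the vehicle, 2% serum in water. The particle was NRCWE-001, which carries no charge, or NRCWE-002, which is positively charged, at 18, 54 or 162 µg per mouse, and lungs were taken on day 1 or day 28. Each of the 12 exposed groups and the day 1 vehicle group had 5 mice, and the day 28 vehicle group had 4. Every lung RNA, labelled in red, was hybridised against a common mouse reference RNA in green, so that a level below is the log2 ratio of lung to reference for that gene. Such levels are compared between groups for 1 gene and never between genes.

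Nrf2 is held in the cytoplasm and degraded with the help of Keap1 in unstressed cells. Electrophiles and oxidants block that degradation, and Nrf2 then enters the nucleus, pairs with a small Maf protein and binds antioxidant response elements in the regulatory DNA of its targets. The targets make and recycle glutathione and thioredoxin, detoxify quinones and degrade haem, and the programme is well known in lung exposed to oxidants and particles.

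RefSeq promoter windows, from 250 bases before to 50 bases after a transcription start, were held for 7 of the 10 genes (9 windows, build GRCm38.p6). They were searched on both strands for the core letters of the antioxidant response element, TGACNNNGC, because that element defines the family. The letters were found in a window of 4 genes, Gclm, Txnrd1, Srxn1 and Nfe2l2, and 12.39% of all 32851 windows of 300 bases held them. By gene, 13.99% of the 27025 genes with a window had them. Txnrd1 had more than 1 window and so more chances of a match. In Srxn1 the match lay after the transcription start and is not printed. The 3 stretches that lie before a start are given 5′ to 3′ on the strand of the gene, with the matching letters in capitals (chr3:122245393-122245461, plus strand, for Gclm; chr10:82859084-82859152, plus strand, for Txnrd1; chr2:75704865-75704913, minus strand, for Nfe2l2). In Gclm and Txnrd1 the match reads on the opposite strand and so appears as its reverse complement.
Gclm: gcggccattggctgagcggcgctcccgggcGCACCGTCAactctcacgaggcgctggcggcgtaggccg
Txnrd1: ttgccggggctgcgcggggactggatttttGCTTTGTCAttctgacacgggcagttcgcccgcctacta
Nfe2l2: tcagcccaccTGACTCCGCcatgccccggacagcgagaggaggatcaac
These matches are a description of the letters in the windows. The windows of Nqo1, Slc7a11 and Osgin1 did not hold them, which says nothing about elements further away. No window was held for Hmox1, Gclc and Gsr, so their promoters were not searched.

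The arrays lay on 18 slides that mixed exposed and vehicle mice in part. Between 61.4% and 87.8% of probes per array were well above background in the lung channel, and no spot was saturated. Markers of alveolar type 2, club and endothelial cells were far above the reference on every array, as lung RNA should be: their mean log2 ratios lay between 3.87 and 6.36. The mean of 6 cardiac muscle markers ranged from 0.17 to 3.72 and that of 5 adipocyte markers from 0.55 to 4.74 over the arrays, and their part in the results was not tested. All members other than Slc7a11 were well above background on all 69 arrays.

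Hmox1 encodes the inducible haem oxygenase that degrades haem to biliverdin, iron and carbon monoxide. On day 1 it was the only member called against vehicle (adjusted p under 0.05 in limma). It rose 1.89-fold at 162 µg of NRCWE-001 and 1.73-fold at 54 µg of NRCWE-002. The 5 vehicle mice had log2 ratios of -1.73, -1.64, -1.62, -1.43 and -1.32. At 162 µg of NRCWE-001 the mice had -1.39, -0.75, -0.50, -0.39 and -0.13. Of these 5 mice, 4 lay above every vehicle mouse and the lowest lay within the vehicle range. The log2 fold change was 0.92 ± 0.17 (SE), with an adjusted p of 0.00337 in limma. At this contrast 0.578% of all genes tested were called in either direction.

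At 54 µg of NRCWE-002 the Hmox1 values were -1.11, -1.02, -0.68, -0.51 and -0.46. All 5 lay above all 5 vehicle mice, a separation in that direction that 1.70% of all genes showed in this contrast. The log2 fold change was 0.79 ± 0.17 (SE) with an adjusted p of 0.0471, where 0.0624% of all genes were called. This call lies close to the threshold: it was lost without any one of 4 mice of the vehicle group (replicates 2 to 5) or of replicates 1, 3 and 4 of the exposed group, with adjusted p up to 0.245, and at 0.0504 without vehicle replicate 1. No member was called for NRCWE-002 on day 1 either without 1 of replicates 1 to 4 at 18 µg or 1 of replicates 1, 2 and 4 at 162 µg. The change itself stayed between 0.72 and 0.88 on the log2 scale with 1 of these mice left out. At 162 µg of NRCWE-002 the values were -1.61, -1.02, -0.98, -0.87 and -0.65. Here 4 mice lay above all vehicle mice and 1 within their range, and the change of 0.52 ± 0.17 (SE, log2) had an adjusted p of 0.194, where 0.595% of all genes were called. The group means were -0.76 at 54 µg and -1.03 at 162 µg of NRCWE-002, and the difference between these doses was not tested.

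**Figure D1:**
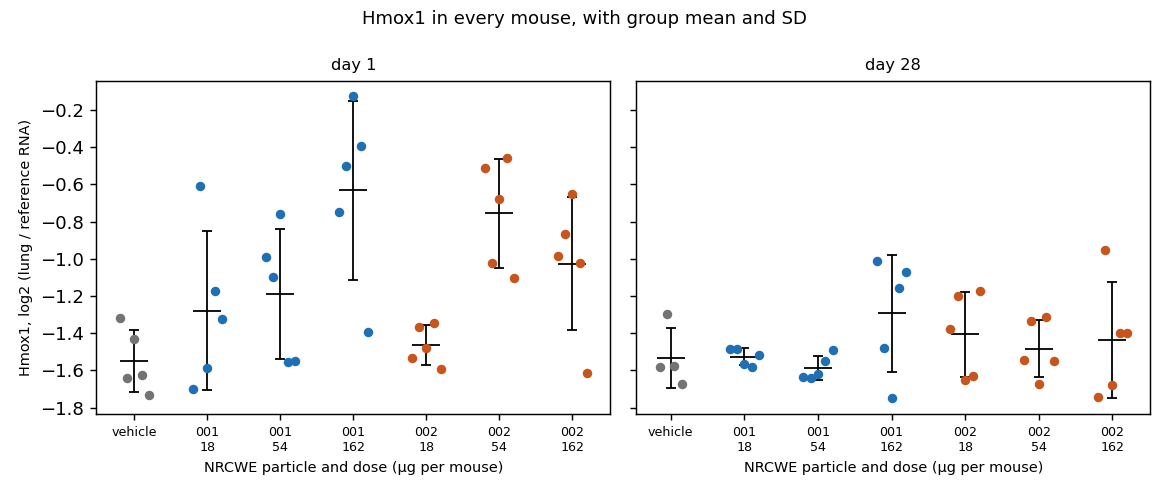
Hmox1 log2 ratio of lung to reference RNA for every mouse on day 1 (left) and day 28 (right), by particle (001, 002) and dose in µg, with the group mean and SD in black. On day 1 the vehicle mice lie between -1.73 and -1.32, and the means at 162 µg of NRCWE-001 and 54 µg of NRCWE-002 are -0.63 and -0.76. On day 28 all group means lie between -1.59 and -1.29.

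At the other day 1 doses no member passed the test in limma. With an unadjusted p under 0.05 there were 0 members at 18 µg and 2 at 54 µg of NRCWE-001, and 0 at 18 µg of NRCWE-002, beside 4.91%, 4.55% and 2.94% of all genes. The 2 were Hmox1 and Slc7a11, whose probe was mostly near background. Hmox1 was higher by 0.27 ± 0.17 at 18 µg and 0.36 ± 0.17 at 54 µg of NRCWE-001, and 0.09 ± 0.17 at 18 µg of NRCWE-002 (SE, log2). The first of these was 0.10 without replicate 2 of its group, a mouse described below with Nqo1. Taken over the 3 doses together, Hmox1 differed from vehicle for NRCWE-001 (F = 9.71, adjusted p = 0.0111) and for NRCWE-002 (F = 9.12, adjusted p = 0.0152), where 0.692% and 0.822% of all genes were called. It was the only member called in either test. With medians of the arrays set equal instead of the within-array curve, neither was called. The first was also lost without replicate 3 or replicate 4 of the 162 µg NRCWE-001 group, and the second without replicate 4 of the 54 µg NRCWE-002 group. Between 162 and 18 µg of NRCWE-001 the log2 difference of Hmox1 was 0.65 ± 0.17 (SE, adjusted p = 0.0518), and it was called with slide as a fixed block (0.66, adjusted p = 0.0106). No member was called between these doses in limma for either particle on either day. With an unadjusted p under 0.05 2 members of each particle were found on day 1, then 1 with NRCWE-001 and 0 with NRCWE-002 on day 28, beside 9.41%, 12.5%, 8.72% and 2.41% of all genes, while 0.85%, 1.42%, 0.941% and 0% of all genes were called.

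Exposed and vehicle mice shared 3 slides for NRCWE-001 and 2 for NRCWE-002 on day 1, with 1 mouse of each group on each. Within those slides the Hmox1 difference at 162 µg of NRCWE-001 was 0.57, 1.14 and 1.31 on the log2 scale. At 54 µg of NRCWE-002 it was 1.11 and 0.63, and at 162 µg of NRCWE-002 it was 0.64 and 1.08. All 7 of these within-slide differences were above 0, and on each NRCWE-002 slide both doses were set against the same vehicle mouse. On the same slides they were -0.38, 1.03 and -0.16 at 18 µg and 0.33, 0.54 and 0.68 at 54 µg of NRCWE-001. At 18 µg of NRCWE-002 they were 0.09 and 0.14. With slide as a random block the change at 162 µg of NRCWE-002 was called too (0.60, adjusted p = 0.0366 in limma). It was also called with scan day as a fixed block (0.70, adjusted p = 0.0259 in limma). With slide as a fixed block it was not called.

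Markers of neutrophils were mostly higher than vehicle at 54 and 162 µg of both particles on day 1. At 162 µg of NRCWE-001 all 8 neutrophil markers measured were higher than in vehicle, with a median log2 fold change of 0.67, and 3 were called: Il1r2 (1.00), Csf3r (0.80) and Cxcr2 (0.69). At 54 µg of NRCWE-002 7 of 8 were higher with a median of 0.39, and at 162 µg 8 of 8 with a median of 0.59, none of them called. The mean of the 8 markers ranged from 1.35 to 1.74 in vehicle mice, from 1.54 to 2.73 at 162 µg of NRCWE-001, from 1.42 to 2.42 at 54 µg and from 1.71 to 2.43 at 162 µg of NRCWE-002. All 8 were well above background on all 69 arrays. Of 8 macrophage markers, Siglecf, a marker of alveolar macrophages and eosinophils, fell by 0.92 on the log2 scale at 162 µg of NRCWE-001 (adjusted p = 0.0498), and the median of the 8 was -0.11. Siglecf had log2 fold changes of -1.04 at 54 µg (adjusted p = 0.0563) and -0.84 at 162 µg of NRCWE-002 (adjusted p = 0.0871), which were not called. The list as a whole did not move with it. Of the 8 macrophage markers 3 were higher at 162 µg of NRCWE-001. At 54 and 162 µg of NRCWE-002 3 and 4 were higher, with medians of -0.15 and 0.03. In whole lung, more or fewer cells of a type and more or less RNA per cell cannot be told apart, and the part of these cells in the Hmox1 values was not tested.

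On day 28 no member was called against vehicle for either particle in limma. With an unadjusted p under 0.05 there were 1, 0 and 1 members at 18, 54 and 162 µg of NRCWE-001, and 1 at each dose of NRCWE-002. Over all genes 8.15%, 2.88% and 8.60%, then 6.04%, 4.95% and 6.71%, had such a p. The member at 162 µg of NRCWE-001 was Slc7a11, whose probe was mostly near background. Called at the adjusted threshold were 0.187%, 0% and 0.0454% of all genes at the 3 doses of NRCWE-001, and 0%, 0% and 0.00567% at those of NRCWE-002. Taken over the 3 doses together, again no member was called, beside 0.476% of all genes with NRCWE-001, and with NRCWE-002 0%. Against vehicle at single doses, all 14 alternative settings also gave a count of 0 for both particles. Over the 3 doses together, the count for NRCWE-001 became 1 (Osgin1) in 3 of the settings, those that blocked on slide, fixed or random, or on scan day. Hmox1 was at -1.67, -1.58, -1.58 and -1.30 in the 4 vehicle mice of day 28. At 162 µg of NRCWE-001 it was at -1.75, -1.48, -1.16, -1.07 and -1.01, so that 3 mice lay above and 1 below all vehicle mice, and their mean was 0.24 ± 0.19 higher (SE, log2; adjusted p = 0.804). The change at 162 µg was lower on day 28 than on day 1 by a log2 difference of -0.68 for NRCWE-001 (95% interval -1.19 to -0.17) and -0.42 for NRCWE-002 (-0.93 to 0.09), but neither was called (adjusted p of 0.9995 and 0.843). None of the 17639 genes was called in these contrasts between days, and 1 and 2 members had an unadjusted p under 0.05, beside 4.35% and 6.68% of all genes.

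**Figure D2:**
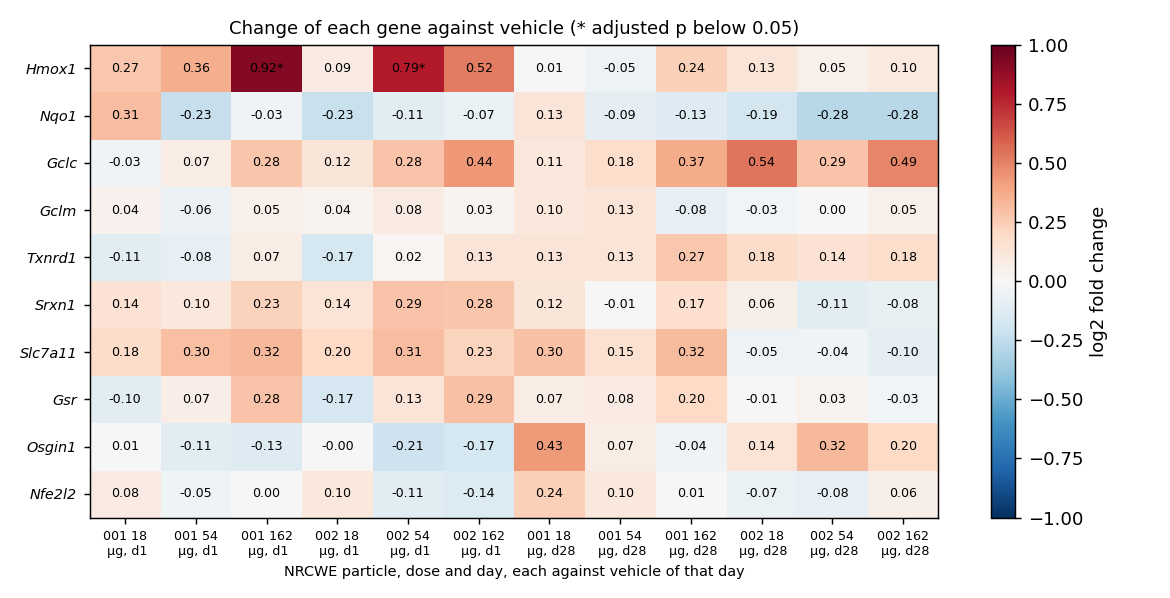
Log2 fold change of each of the 10 genes (rows) against the vehicle group of the same day, for each particle, dose in µg and day (columns), with the value printed in each cell and an asterisk where the adjusted p was under 0.05. The 2 asterisks are both in the Hmox1 row on day 1, at 0.92 and 0.79.

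Among the genes of glutathione supply, Gclc and Gclm encode the catalytic and modifier subunits of glutamate-cysteine ligase, the rate-limiting enzyme of glutathione synthesis, and Gsr encodes the reductase that recycles oxidised glutathione. None of them was called against vehicle. For Gclc the log2 difference from vehicle was 0.44 ± 0.19 (SE, adjusted p = 0.459) at 162 µg of NRCWE-002 on day 1 and 0.54 ± 0.21 (adjusted p = 0.729) at 18 µg on day 28, the highest of its 12 values. On day 1 the vehicle mice lay between 1.86 and 2.32 with a median of 2.26. The mice at 162 µg of NRCWE-002 lay between 2.05 and 2.80 with a median of 2.64. Of these, 4 of 5 lay above all vehicle mice. Gclm stayed between -0.08 and 0.13 over the 12 contrasts, with group means from -0.54 to -0.28. Its group means spanned 0.26, the narrowest span among the 10 genes. Gsr had its highest values at 162 µg on day 1, 0.28 ± 0.18 for NRCWE-001 and 0.29 ± 0.18 for NRCWE-002 (SE). Its 5 mice at 162 µg of NRCWE-002 lay between 1.01 and 1.63, all above those at 18 µg, between 0.70 and 0.99. That difference was 0.46 ± 0.18 (SE, adjusted p = 0.226), and 4.48% of all genes showed such a separation.

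Txnrd1, the cytosolic thioredoxin reductase, lay between -0.17 and 0.27 over the 12 contrasts, and no contrast had an unadjusted p under 0.05. Srxn1, the sulfiredoxin that repairs over-oxidised peroxiredoxins, was between 0.10 and 0.29 higher than vehicle in all 6 day 1 contrasts, which share the same 5 vehicle mice. Without replicate 2 at 18 µg of NRCWE-001 the value of that contrast was 0.03 in place of 0.14. At 54 µg of NRCWE-002, where its unadjusted p was lowest, it was higher by 0.29 ± 0.11 on the log2 scale (SE, adjusted p = 0.616). The vehicle mice were at -1.38, -1.36, -1.28, -1.16 and -0.98. At 54 µg of NRCWE-002 the mice were at -1.21, -1.09, -0.89, -0.79 and -0.74, so that 3 of 5 lay above all vehicle mice. Its 3 probes had log2 fold changes of 0.24, 0.25 and 0.34 at 162 µg of NRCWE-002. On day 28 the gene lay between -0.11 and 0.17.

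**Figure D3:**
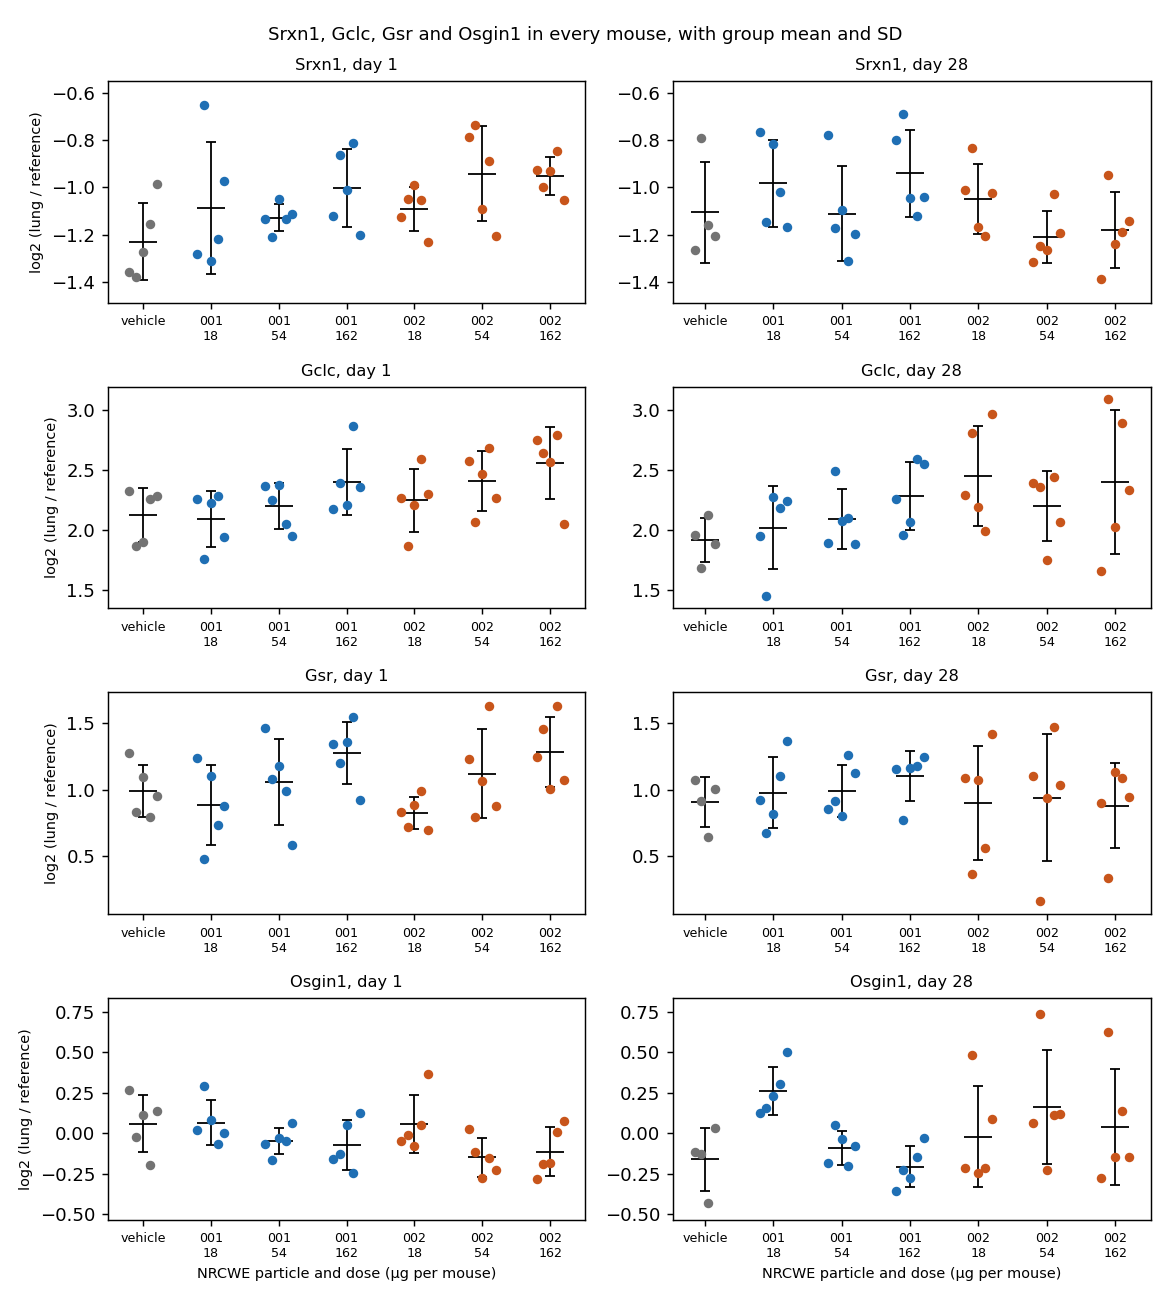
Log2 ratio of lung to reference RNA for Srxn1, Gclc, Gsr and Osgin1 (rows) in every mouse on day 1 (left) and day 28 (right), by particle and dose in µg, with the group mean and SD in black. Exposed and vehicle mice overlap in every panel, apart from Osgin1 at 18 µg of NRCWE-001 on day 28.

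Osgin1, which encodes an oxidative stress-induced growth inhibitor, had mice at -0.43, -0.13, -0.12 and 0.03 in the day 28 vehicle group. At 18 µg of NRCWE-001 on day 28 its mice were at 0.13, 0.16, 0.23, 0.30 and 0.50, all above every vehicle mouse. The log2 fold change was 0.43 ± 0.14 (SE) with an adjusted p of 0.263, and 0.964% of all genes were separated in this way. At 162 µg of NRCWE-001 the values were -0.36, -0.28, -0.23, -0.15 and -0.03, all below those at 18 µg. The difference between 162 and 18 µg was -0.47 ± 0.13 (SE, adjusted p = 0.0535), with 0.935% of all genes separated in that direction. It was called with slide as a fixed block (-0.47, adjusted p = 0.00178).

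Nqo1, the quinone reductase often used as a marker of Nrf2 activity, was not called in any contrast and lay between -0.28 and 0.31 against vehicle. The value of 0.31 at 18 µg of NRCWE-001 on day 1 came from 1 mouse, replicate 2, at 0.42, while the other 4 lay between -2.01 and -1.76. Without that mouse the change was -0.14. The same mouse had the highest Srxn1 of all 69 mice (-0.65) and the highest Hmox1 of its group (-0.61), whereas its Gclc (1.75) and Gsr (0.48) were the lowest of its group. The 3 lowest Nqo1 values of the study, from -2.67 to -2.60, were the 3 arrays of 1 slide, all of NRCWE-002 on day 28, and the next lowest of the other 66 arrays was -2.27. These 3 arrays also had the lowest Gsr of their groups (0.17 to 0.37). Nfe2l2 lay between -0.14 and 0.24 against vehicle, with no unadjusted p under 0.05, and its group means spanned 0.36. Nrf2 is controlled largely through protein stability, which an mRNA array does not measure.

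Counted over the 10 genes, 3 had an unadjusted p under 0.05 at 162 µg of NRCWE-001, 3 at 54 µg and 3 at 162 µg of NRCWE-002 on day 1, where 7.06%, 5.83% and 8.93% of all genes did. The members' median log2 fold changes there were 0.15, 0.10 and 0.18, against 0.01, 0.00 and 0.01 over all genes. Hmox1 and Srxn1 were among the 3 in each case. The remaining member was Slc7a11 at 162 µg of NRCWE-001 and 54 µg of NRCWE-002, and Gclc at 162 µg of NRCWE-002. Slc7a11 rested on 1 probe that was well above background on only 12 of 69 arrays. On day 1, 8, 7 and 7 of the 10 were higher than vehicle in those 3 contrasts, against 53.1%, 50.3% and 54.9% of all genes. At 18 and 54 µg of NRCWE-001 and 18 µg of NRCWE-002 they were 7, 5 and 6, beside 53.3%, 54.2% and 47.8%. On day 28, 10, 7 and 7 were higher at 18, 54 and 162 µg of NRCWE-001, beside 46.1%, 47.6% and 46.5%. The members' medians there were 0.12, 0.09 and 0.18. With NRCWE-002 on that day 5, 6 and 6 were higher, beside 48.9%, 50.1% and 46.8%, with medians of 0.03, 0.02 and 0.05.

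Slc7a11, which encodes the cystine carrier that feeds glutathione synthesis, was dim in lung. Its value rested on 1 of 3 probes, and that probe was well above background on 12 of 69 arrays. On day 1 these were 0 of 5 vehicle arrays and 4 of 5 at 162 µg of NRCWE-001, and the change in that contrast was not called (0.32 ± 0.14 SE, adjusted p = 0.539) except with slide or scan day as a fixed block (0.36, adjusted p = 0.0178 with slide). On day 28 it was the only member called between the particles, averaged over the 3 doses: NRCWE-002 minus NRCWE-001 was -0.32 ± 0.08 on the log2 scale (SE, adjusted p = 0.0165), where 4.79% of all genes were called. With an unadjusted p under 0.05 there were 2 members, Slc7a11 and Srxn1, beside 22.3% of all genes. The 15 mice given NRCWE-001 lay between -0.85 and -0.09 with a median of -0.42. The 15 given NRCWE-002 lay between -1.06 and -0.15 with a median of -0.81. The ranges overlapped. The probe was well above background on 2 and 3 arrays of these 15 and 15, so the difference is one between log2 ratios mostly near background and not a measured change of the transcript. It ranged from -0.68 with the processed signals of the scanner software (adjusted p = 0.297) to 0.12 with slide as a fixed block (adjusted p = 0.902), where its sign was turned, and it was -0.09 without the filter on dim probes (adjusted p = 0.117). On the 2 slides that held both particles it was 0.25 and 0.08, with NRCWE-002 higher. On day 1 no member was called between the particles in limma, and none had an unadjusted p under 0.05 (7.31% of all genes did, and 0.125% were called). The Hmox1 difference on day 1 was -0.05, with a 95% interval from -0.25 to 0.15.

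Other genes moved in the same day 28 contrast of the particles. Of 5 B cell markers, Ms4a1 (0.68) and Cd79b (0.56) were called and all 5 were higher with NRCWE-002. The 6 cardiac muscle markers were all higher, with a median log2 difference of 0.80, and so were the 5 adipocyte markers, with a median of 0.54, none of them called. Most other marker lists were higher too, with none called: ciliated 5 of 5, club 4 of 4, T cell 4 of 5 and alveolar type 2 6 of 7. Endothelial markers were higher in 4 of 5, neutrophil and macrophage markers each in 6 of 8, and erythroid markers in 2 of 5. The mean of the B cell markers ranged from -0.02 to 1.12 in mice given NRCWE-001 and from 0.09 to 1.43 in those given NRCWE-002. For cardiac muscle the ranges were 0.17 to 3.35 and 0.19 to 3.72, and for adipocytes 0.55 to 2.74 and 0.70 to 4.74. Pax5, Pln and Lep were well above background on 21, 26 and 21 of the 69 arrays. The part of these cells in the Slc7a11 values was not tested. Of the other pathway genes, Nfe2 (0.29) and Taldo1 (0.15) were called as higher and Rbx1 (-0.13) and Abcc4 (-0.12) as lower with NRCWE-002. Few slides held both particles on day 28, and no values with slide as a block are given for the markers and pathway genes here. How much of their differences goes with slide is therefore not shown here.

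**Figure D4:**
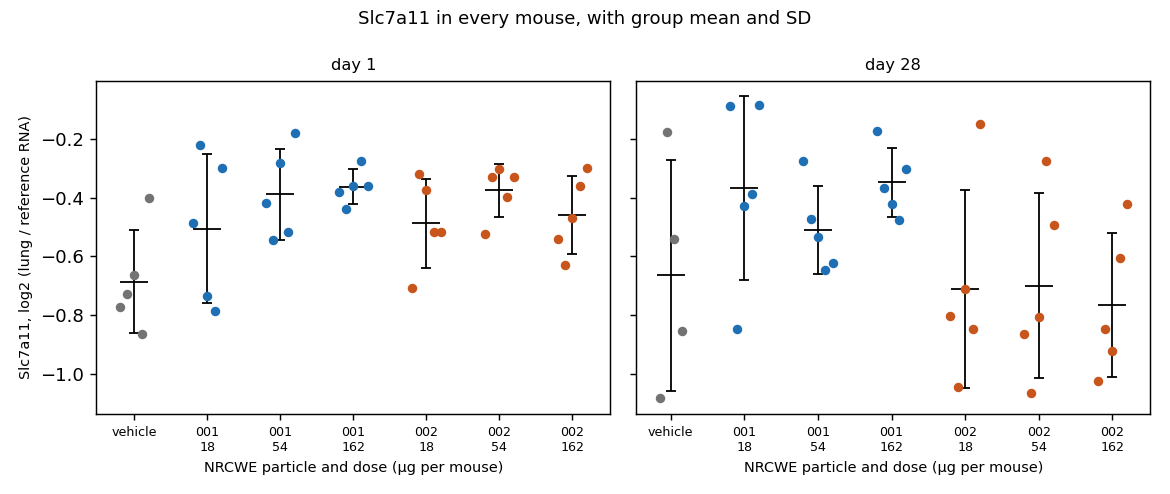
Slc7a11 log2 ratio of lung to reference RNA for every mouse on day 1 (left) and day 28 (right), by particle and dose in µg, with the group mean and SD in black. On day 28 the NRCWE-001 mice have a median of -0.42 and the NRCWE-002 mice of -0.81, and the vehicle mice span -1.08 to -0.18.

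Beyond the 10 genes, 57 others of the pathway were measured in 5 lists. Against vehicle, 1 of 13 detoxification, haem and iron genes was called, and it was called at both 162 µg doses of day 1. This was Fth1, the ferritin heavy chain that stores the iron freed from haem, with log2 fold changes of 0.61 ± 0.12 for NRCWE-001 (SE, adjusted p = 0.0046) and 0.53 ± 0.12 for NRCWE-002 (adjusted p = 0.0172). Of all genes tested, 0.578% and 0.595% were called in those contrasts. Of 10 regulators, Maff, a small Maf partner of Nrf2, was called at 18 µg of NRCWE-001 on day 28 (0.99 ± 0.23 SE, adjusted p = 0.0375). There 0.187% of all genes were called. None of 18 genes of glutathione synthesis and use, 10 thioredoxins and peroxiredoxins or 6 genes of NADPH supply was called against vehicle. None of the 57 was called as lower than vehicle.

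Over the 14 group means, the genes outside the members whose pattern was most like that of Hmox1 were Orm2 (Pearson r = 0.954), Orm1 (0.948) and Saa1 (0.947), all acute phase proteins. Orm1 and Orm2 are close copies whose probes may not tell them apart. The 14 means share the reference RNA, and the correlation is a description. At 162 µg of NRCWE-001 on day 1 Saa1 was higher than vehicle by 3.86 ± 0.66 on the log2 scale (SE), beside 0.92 for Hmox1. Saa1 was picked for its likeness to Hmox1 over means that include these groups. Its rise there therefore followed in large part from the choice and is not a separate result.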

How the data were processed

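Whole lung RNA of 69 mice was measured on 2-colour Agilent 4x44K arrays, red for lung and green for the common reference, with no dye swap. Per the file headers, the authors' scanner files came from Agilent Feature Extraction 11.0.1.1 and hold spot intensity in each channel. The deposited table holds log2 ratios of lung over reference; it correlated with the ratios computed here at 0.987 to 0.995 per array, its column medians lay between -0.0586 and -0.00264, and it was used as an alternative. Its background correction is not given in the sources used here. The member rule names the deposited table; the values in the text come from the scanner files. The scanner's flags for spots well above background (unit other, deposited) set the filter.

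Median intensities were background corrected by normexp (offset 50; spots with a local background more than 10 median absolute deviations off the median of their array did not enter the curve fit) and normalised by loess within each array in limma 3.58.1 (R 4.3.3). Control spots and outlier features were left out. Probes well above background in lung on at least 4 arrays were kept: 36469 of 41174. Accessions were matched to RefSeq symbols of GRCm38.p6 (27479 probes, 66.7%), and probes of a gene were combined by their median, giving 17639 genes. One limma model held the 14 group means. Tests were two-sided, with a moderated F for the 3 doses together. The Benjamini-Hochberg adjustment ran over all genes of a contrast, and a gene was called under 0.05. The fit was tested on simulated data. The number of arrays limits the precision.

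Replicates are separate mice. The 10 members and all lists were chosen with earlier results of these data known. Every member is named; values per mouse are given for members the results turn on. Up to 3 called genes per pathway list and the 3 genes most like Hmox1, the member called in the most contrasts, are named with fold changes or correlations. Mouse 2 at 18 µg of NRCWE-001 and the slide with low Nqo1 were chosen after their values were seen. Marker lists of 11 cell types were measured; their calls against vehicle were the 4 genes named. Alternatives covered background correction, centring, the deposited table, filters, probe means, slide and scan day as blocks, arrays of 1 day, the variance model and leaving out each mouse.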

Additional observations from a re-analysis of the deposited data

Results flagged for a closer look

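In all, 6 of 140 combinations of member and group held a mouse far from the others, where chance flags about 1 in 20. Nqo1 was high in replicate 2 at 18 µg of NRCWE-001 on day 1 (0.42, next -1.76). It was low in replicate 2 at 54 µg of NRCWE-002 on day 1 (-2.27, next -1.77) and in replicate 2 at 162 µg of NRCWE-002 on day 28 (-2.63, next -2.08). Gclm was low in replicate 1 at 18 µg of NRCWE-002 on day 28 (-0.97, next -0.37). Gsr was low in replicate 2 at 162 µg of NRCWE-001 on day 28 (0.78, next 1.16). Osgin1 was high in replicate 5 at 18 µg of NRCWE-002 on day 1 (0.37, next 0.05). None of these 4 genes was called against vehicle.

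The Slc7a11 log2 ratios differed between the particles on day 28 by -0.32 in limma, with the probe well above background on 2 and 3 of 15 arrays and thus mostly near background, and the sign turned with slide as a fixed block.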

How the results depend on the processing

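No paired analysis was possible because the replicate numbers follow the order of the samples and pair no mice; mice that share a slide were compared with slide as a block and within slides. Of 181 counts of called members under the 14 alternatives, 148 stayed within 1.5 times and 33 moved. Hmox1 at 162 µg of NRCWE-001 on day 1 was called in all 14 (0.89 to 1.04) and with any of 10 mice left out (0.79 to 1.11). Hmox1 at 54 µg of NRCWE-002 lost its call with median centring (0.77, adjusted p = 0.577), no filter (0.79, 0.0501), background outliers also left out (0.78, 0.092; chosen after seeing the data) and arrays of the same day only (0.79, 0.0847), so that the count of members called for that particle on day 1 was 0 there; leaving out a mouse gave 0 to 1. With slide or scan day as a fixed block, 2 members were called for NRCWE-001 on day 1 against vehicle, and 2 by dose, Slc7a11 being added; median centring gave 0 by dose for both particles. Leaving out a mouse gave 0 to 1 by dose for each particle on day 1. For NRCWE-001 on day 28 the count by dose was 1 with slide as a fixed or random block or scan day as a block.

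At 162 against 18 µg on day 1 the count of 0 became 1 with no background correction, normexp on all spots, the deposited log2 ratios, the filter at 35 arrays and scan day as a block, and 2 with slide as a fixed or random block; with a mouse left out it was 0 to 1. On day 28 it became 1 with the filter at 35 arrays, slide as a fixed or random block, scan day as a block, and a variance trend with robust moderation, and 0 to 1 with a mouse left out. Members that differed between the particles on day 28 numbered 0 with processed signals, no filter, the filter at 35 arrays (Slc7a11 not tested), slide as a fixed or random block, scan day as a block and same-day arrays, and 5 with median centring, which added Gsr, Nfe2l2, Nqo1 and Srxn1; with a mouse left out it stayed 1. The Slc7a11 difference was 0.12 with slide and 0.089 with scan day as a fixed block, and -0.68 with processed signals. In the contrast of days for NRCWE-002, median centring moved the median of all genes from -0.02 to -0.13. The causes were not tested.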
